A study of Mus musculus with 10 samples.

Results

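In mouse aortic arch, 10 genes of the heat shock protein and chaperone families were followed: the HSP70 genes Hspa1a, Hspa1b, Hspa8 and Hspa5, the HSP90 genes Hsp90aa1 and Hsp90ab1, the small heat shock protein gene Hspb1, the mitochondrial chaperonin genes Hspd1 and Hspe1, and the HSP40 gene Dnajb1. They were found by the gene symbols of the array's annotation. Of these 10 genes, 9 had a probe, each with 1 probe, and 8 gave a value in at least 3 mouse pairs, among 11130 genes with a probe and 4299 with such values. No probe carried the symbol Hsp90ab1, and Hspa1b had a value on 3 arrays only.

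Each of the 10 two-colour arrays set RNA of 1 mouse lacking apolipoprotein E and MyD88 (ApoE-/-,MyD88-/-, double-null) against RNA of 1 mouse lacking apolipoprotein E alone (ApoE-/-, apoE-null). Both genotypes therefore lack apolipoprotein E, a lipoprotein ligand whose loss gives mice atherosclerosis, and differ in MyD88, the adaptor of Toll-like and interleukin-1 receptors. There were 5 mouse pairs, and each was put on 2 arrays with the dyes exchanged. Pair 1 was female (mice 7 and 8, whose genotypes the labels exchange between the arrays), pairs 2, 3 and 4 were male (double-null mice 1, 2 and 3 with apoE-null mice 4, 10 and 11), and pair 5 joined the male double-null mouse 9 with the female apoE-null mouse 6. A high fat diet over 8 weeks is stated for 8 arrays, and the other two, of pairs 2 and 3, hold mice that also appear on arrays with that statement. The labels state no ages. The arches were perfused with and cleaned in RNA Later, which leaves bulk tissue of all vessel cell types. All values below are log2 ratios of double-null over apoE-null, so that a negative value means less transcript in the double-null mouse. They are ratios, not levels, and do not show which mouse of a pair was the unusual one.

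Heat shock proteins are molecular chaperones: they hold unfolded proteins, use ATP to refold them, or pass them on for degradation. Cytosolic members such as Hspa1a are switched on by heat shock factor 1 (HSF1) when unfolded proteins accumulate, whereas the ER member Hspa5 is switched on by the unfolded protein response and Hspd1 with Hspe1 folds proteins inside mitochondria. In the vessel wall, small heat shock proteins such as Hspb1 are abundant in smooth muscle, where they bind the actin cytoskeleton, and HSP60 and HSP70 have long been studied as antigens and stress proteins of atherosclerotic plaque.

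The promoters of 4 members are shown for their known elements. Hspa1a, Hspb1 and the mitochondrial Hspe1 hold heat shock units, and Hspa5 holds an ER stress element. Each window is the 250 bases before the transcript start, from RefSeq with build GRCm38.p6, 5′ to 3′ on the strand of the gene. RefSeq windows were matched for 7 of the 10 members. Capitals mark pairs of heat shock units (GAANNTTC or TTCNNGAA, each of which reads the same on both strands) and, in Hspa5, an ER stress element, that is CCAAT followed after 9 bases by CCACG, searched on both strands.
Hspa1a (chr17:34972157-34972406, minus strand): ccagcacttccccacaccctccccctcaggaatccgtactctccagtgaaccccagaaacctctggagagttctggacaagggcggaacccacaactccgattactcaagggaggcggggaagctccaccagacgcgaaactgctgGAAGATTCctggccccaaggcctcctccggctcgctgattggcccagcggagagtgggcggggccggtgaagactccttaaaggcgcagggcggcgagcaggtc
Hspb1 (chr5:135887669-135887918, plus strand): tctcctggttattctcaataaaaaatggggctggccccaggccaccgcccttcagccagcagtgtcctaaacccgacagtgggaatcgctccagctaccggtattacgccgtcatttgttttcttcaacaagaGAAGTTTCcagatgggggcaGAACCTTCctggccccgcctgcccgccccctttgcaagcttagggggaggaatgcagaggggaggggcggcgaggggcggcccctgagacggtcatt
Hspe1 (chr1:55087898-55088147, plus strand): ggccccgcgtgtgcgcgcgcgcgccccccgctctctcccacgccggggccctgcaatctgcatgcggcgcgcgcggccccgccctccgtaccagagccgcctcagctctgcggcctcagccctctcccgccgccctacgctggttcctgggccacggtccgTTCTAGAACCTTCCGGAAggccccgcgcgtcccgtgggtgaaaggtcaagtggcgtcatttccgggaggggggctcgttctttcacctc
Hspa5 (chr2:34771840-34772089, plus strand): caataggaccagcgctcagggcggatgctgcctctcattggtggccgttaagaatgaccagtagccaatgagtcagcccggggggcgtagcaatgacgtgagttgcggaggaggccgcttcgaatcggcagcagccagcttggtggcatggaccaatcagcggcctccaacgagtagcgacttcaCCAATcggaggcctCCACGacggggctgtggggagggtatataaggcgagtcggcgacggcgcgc

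Hspa1a held 1 heat shock pair, GAAGATTC at -104 to -97, and Hspb1 held 2, GAAGTTTC at -117 to -110 and GAACCTTC at -97 to -90. The Hspe1 window held the longest run, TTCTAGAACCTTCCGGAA, in which GAANNTTC overlaps TTCNNGAA on either side and which therefore contains 2 overlapping sets of 3 alternating units. Hspd1 is transcribed the other way from the same stretch: the window of its second RefSeq start shares 215 bases of the genome with that of Hspe1 and holds the same element on the other strand. The Hspa1b window differed from that of Hspa1a at 3 of 250 bases. GAANNTTC was present in 6.69% and TTCNNGAA in 7.17% of 32851 RefSeq promoter windows of this length, 3 alternating units in 0.466% and the ER stress element in 0.113%. No match to these letters lay in either Dnajb1 window or in that of the first Hspd1 start, and the matches are descriptions of letters, not of bound sites.

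None of the chaperone genes differed between genotypes beyond the spread between mouse pairs. Limma called 0 of 8 members at adjusted p under 0.05, against 0.814% of all 4299 genes in either direction (0.628% higher and 0.186% lower, which is 27 and 8 genes), and at an unadjusted p under 0.05 it called 0 of 8, against 9.47% of all genes. The split of all called genes by direction changed with the setting: it was 12 higher and 17 lower with the pair as a block on single arrays, 9 and 20 with double-null RNA in channel 1 only, and 0 and 3 without genes with a dye effect. The mean log2 ratios lay between -0.51 for Hspb1 and 0.14 for Hspd1, 5 above 0 and 3 below. Their median was 0.0026, beside -0.04 over all 4299 genes, of which 1793 had means above 0 and 2506 below. As a check of the labels, Myd88, the deleted gene, fell by 0.90 on the log2 scale and read between -1.20 and -0.46 over the 10 arrays (limma, adjusted p = 0.0269). The 5 pairs are separate mice, so their spread includes differences between animals.

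**Figure D1:**
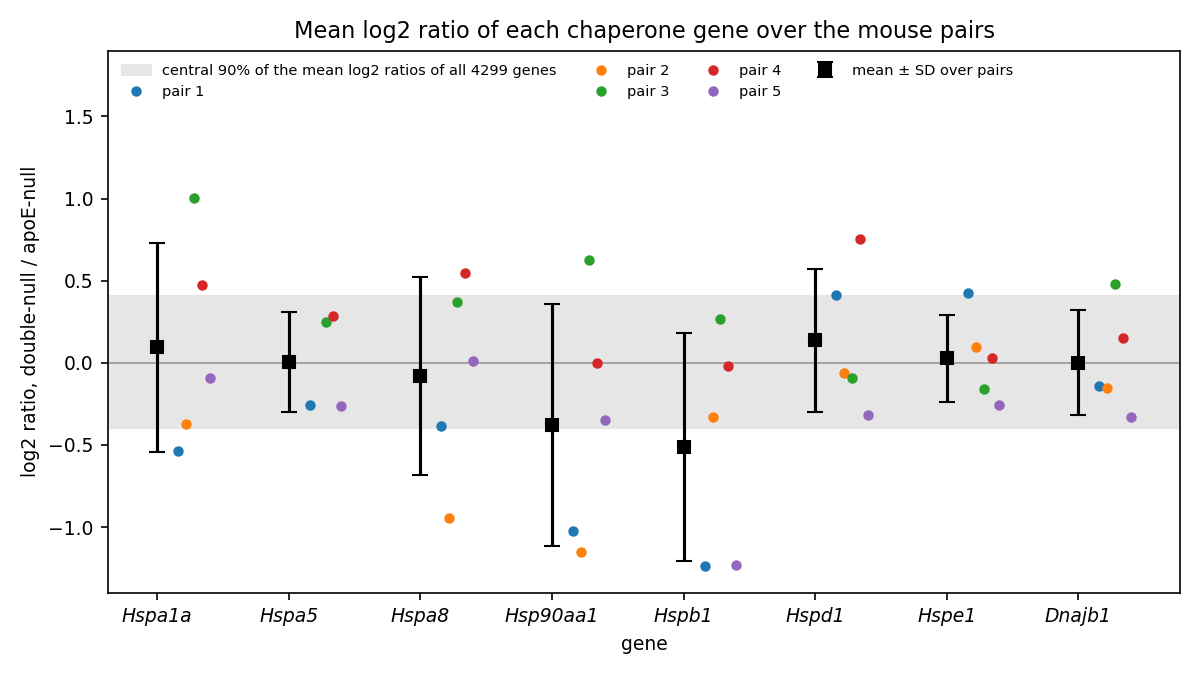
Mean log2 ratio of double-null over apoE-null for the 8 chaperone genes with pair values (squares, with bars of 1 SD over the pairs) and the single pair values (coloured points), on a linear log2 axis. The grey band is the central 90% of the mean log2 ratios of 4299 genes, from -0.40 to 0.41; Hspb1 alone has its mean below it, and pair values of most genes lie on both sides of 0.

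The inducible cytosolic HSP70 gene Hspa1a had opposite signs in different pairs. With double-null RNA in channel 1 its log2 ratios were -0.81, -0.39, 0.77, 0.47 and 0.04 in pairs 1 to 5, and with it in channel 2 they were -0.26, -0.36, 1.23, 0.49 and -0.23. Both arrays were below 0 in pairs 1 and 2 and above 0 in pairs 3 and 4, and they disagreed in sign in pair 5 alone. The mean over pairs was 0.10 ± 0.64 (SD, n = 5 pairs; limma, adjusted p = 0.889), and it had a 95% confidence interval from -0.41 to 0.60. Its twin Hspa1b, a neighbouring gene that encodes a nearly identical protein, read 0.26, 0.56 and 0.51 on the channel 2 arrays of pairs 2, 3 and 4. On the same arrays Hspa1a read -0.36, 1.23 and 0.49, so the probes had opposite signs in pair 2. Each probe may also have bound RNA of the other copy, which makes both values uncertain. Allowing a pair value from 1 array gave Hspa1b a mean of 0.44 ± 0.16 (SD, n = 3 pairs, adjusted p = 0.450 in limma), all from 1 dye orientation.

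Hspa8, the constitutive cytosolic HSP70, and Hsp90aa1, the inducible HSP90 that matures kinases and steroid receptors, also had pair values on both sides of 0. Hspa8 had pair values of -0.38, -0.95, 0.37, 0.55 and 0.01 in pairs 1 to 5. Both of its arrays were below 0 in pair 2 and above 0 in pairs 3 and 4, while those of pair 1 disagreed, at 0.11 and -0.88, as did those of pair 5, at 0.26 and -0.23. Its mean was -0.08 ± 0.60 (SD, n = 5 pairs, adjusted p = 0.905 in limma, 95% confidence interval -0.57 to 0.41). Hspa8 was the only one of the 8 members with a dye effect (adjusted p = 0.0481, against 4.82% of all genes): its mean was 0.22 with double-null RNA in channel 1 and -0.38 with it in channel 2. Hsp90aa1 read -0.57, -1.03, 0.88, 0.32 and -0.27 on the channel 1 arrays of pairs 1 to 5 and -1.48, -1.27, 0.38, -0.31 and -0.43 on the channel 2 arrays. Pairs 1, 2 and 5 were below 0 on both of their arrays, pair 3 was above 0 on both, and pair 4 changed sign between them. The pair values averaged -0.38 ± 0.74 (SD, n = 5 pairs), an adjusted p of 0.618 in limma with a 95% confidence interval from -0.95 to 0.20.

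Hspb1 had the lowest mean of the family, and that mean came from pairs 1, 2 and 5. Its channel 1 arrays read -1.38, -0.43, -0.05, -0.07 and -1.16 and its channel 2 arrays -1.09, -0.24, 0.59, 0.03 and -1.31 in pairs 1 to 5. Pairs 1 and 5 were lowest, at -1.24 and -1.23, and no array of the other pairs came below -0.43. The mean was -0.51 ± 0.69 (SD, n = 5 pairs), a 1.42-fold lower ratio that did not pass in limma (adjusted p = 0.531, 95% confidence interval -1.06 to 0.035), and 8 of 10 arrays were below 0. In the 3 male pairs alone the mean was -0.03.

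Dnajb1, the HSP40 that stimulates the ATPase of HSP70 and delivers clients to it, had smaller ratios. Its pair values were -0.14, -0.15, 0.48, 0.15 and -0.33, below 0 in pairs 1, 2 and 5 and above 0 in pairs 3 and 4, with a mean of 0.00078 ± 0.32 (SD, n = 5 pairs, adjusted p = 0.998 in limma). The arrays of pair 2 disagreed, at 0.21 and -0.52, as did those of pair 4, at 0.37 and -0.07. Hspa5, the HSP70 of the ER lumen (BiP), lacked the channel 2 array of pair 2. It had values of -0.25, 0.25, 0.29 and -0.26 in pairs 1, 3, 4 and 5, and its remaining array of pair 2 read -0.44. The arrays of pair 1 disagreed in sign, at 0.16 and -0.67, as did those of pair 3, at 0.62 and -0.13. The mean was 0.0045 ± 0.30 (SD, n = 4 pairs, adjusted p = 0.992 in limma), with array means of 0.16 and -0.30 in the dye orientations and no dye effect past the test (adjusted p = 0.0763).

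The mitochondrial chaperonin genes had another pattern over the pairs. Hspd1, the HSP60 ring, had pair values of 0.41, -0.06, -0.09, 0.75 and -0.32, highest in pairs 4 and 1. Hspe1, the HSP10 lid of the same ring, had 0.43, 0.10, -0.16, 0.03 and -0.26, highest in pair 1. By pair value, both were thus above 0 in pair 1, where every cytosolic member was below 0. In pair 3 both were below 0, where every cytosolic member was above 0. The arrays of pair 3 disagreed in sign for Hspd1, at 0.01 and -0.20, and for the cytosolic Hspb1, at -0.05 and 0.59. Those of Hspe1 read -0.30 and -0.02. In pair 2 the arrays disagreed for Hspd1, at 0.07 and -0.20, and for Hspe1, at -0.10 and 0.30. The means of Hspd1 and Hspe1 were 0.14 ± 0.44 and 0.03 ± 0.26 (SD, n = 5 pairs), with adjusted p of 0.767 and 0.952 in limma. Although transcribed from 1 shared stretch, in pair 4 they stood apart, at 0.75 and 0.03.

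**Figure D2:**
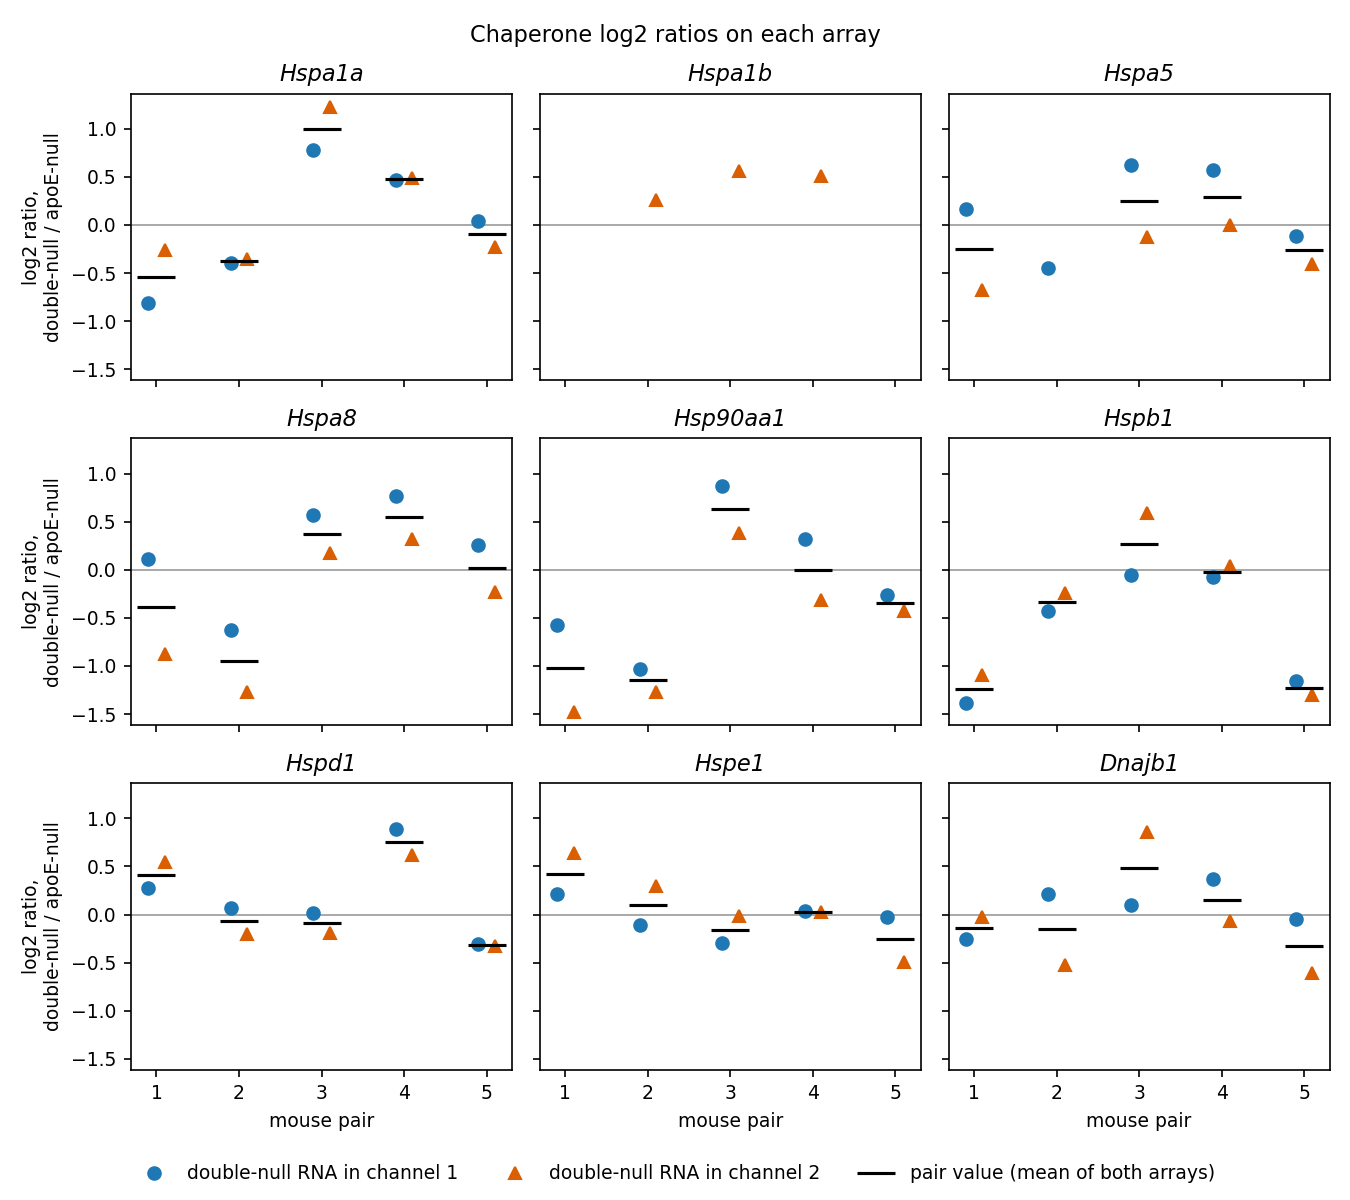
Log2 ratio of double-null over apoE-null on every array (vertical axis) for the 9 chaperone genes with a probe, by mouse pair (horizontal axis), with circles for arrays that held double-null RNA in channel 1, triangles for channel 2 and bars for the pair value. Hspa1a and Hsp90aa1 lie below 0 in pairs 1 and 2 and above 0 in pair 3 on both arrays, whereas Hspb1 is lowest in pairs 1 and 5, and Hspa1b has 3 values.

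Most members had the same sign within a pair. In pair 1, 6 of 8 members were below 0 (median -0.32), in pair 2, 6 of 7 (median -0.33), and in pair 5, 7 of 8 (median -0.29). In pair 3, 6 of 8 were above 0 (median 0.32), and in pair 4, 7 of 8 (median 0.22). Medians over all genes lay between -0.08 and -0.0021 in these pairs, so values below 0 were also the more common over all genes in each pair. The members share their arrays, so these counts describe 5 pairs, not 39 independent values. The partner arrays had the same sign in 26 of 39 pair values of the members, or 66.7%. Over all genes this was 61.7% of 20016 pair values. Over all probes the partner arrays of pairs 3 and 4 correlated least, at r = 0.04 and 0.19. In pair 3 the arrays disagreed in sign for Hspa5, Hspb1 and Hspd1, and in pair 4 for Hsp90aa1, Hspb1 and Dnajb1.

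A limma F test, chosen after these values were seen, asked whether the ratio differed among the 5 mouse pairs by more than the arrays of a pair differed, with dye orientation as a covariate. It called 5 of 7 members with values on all 10 arrays, against 30.9% of 3192 such genes: Hsp90aa1 (adjusted p = 0.00033), Hspb1 (0.000495), Hspa8 (0.00132), Hspa1a (0.00139) and Hspd1 (0.0135). Hspe1 (adjusted p = 0.229) and Dnajb1 (0.241) did not pass, and Hspa5 lacked an array. The test compares single mouse pairs and says nothing of genotype. A difference among pairs was not particular to the members. Of the cell type markers given below, it called 13 of 14 adipocyte, 6 of 6 brown fat, 14 of 16 macrophage and 4 of 4 striated muscle markers. It called 4 of 8 smooth muscle and 3 of 9 endothelial markers. For Hsp90aa1 the pair values had an SD of 0.74 and the arrays a residual SD of 0.21, and for Dnajb1 these were 0.32 and 0.44. By the size of its SD between pairs, Hsp90aa1 stood at the 94.4th percentile of the 3192 genes, Hspb1 at the 93.5th, Hspa1a at the 91.6th, Hspa8 at the 90.1st, Hspd1 at the 76.6th, Dnajb1 at the 54.3rd and Hspe1 at the 40.3rd. Leaving out pair 1 kept these 5 members, against 15.1% of all genes. Leaving out pair 4 or pair 5 took Hspd1 out of the call and left 4 members, against 27.4% and 24.3% of all genes, and without the orientation term Hspa8 dropped out, which also left 4, against 15.0% of all genes.

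**Figure D3:**
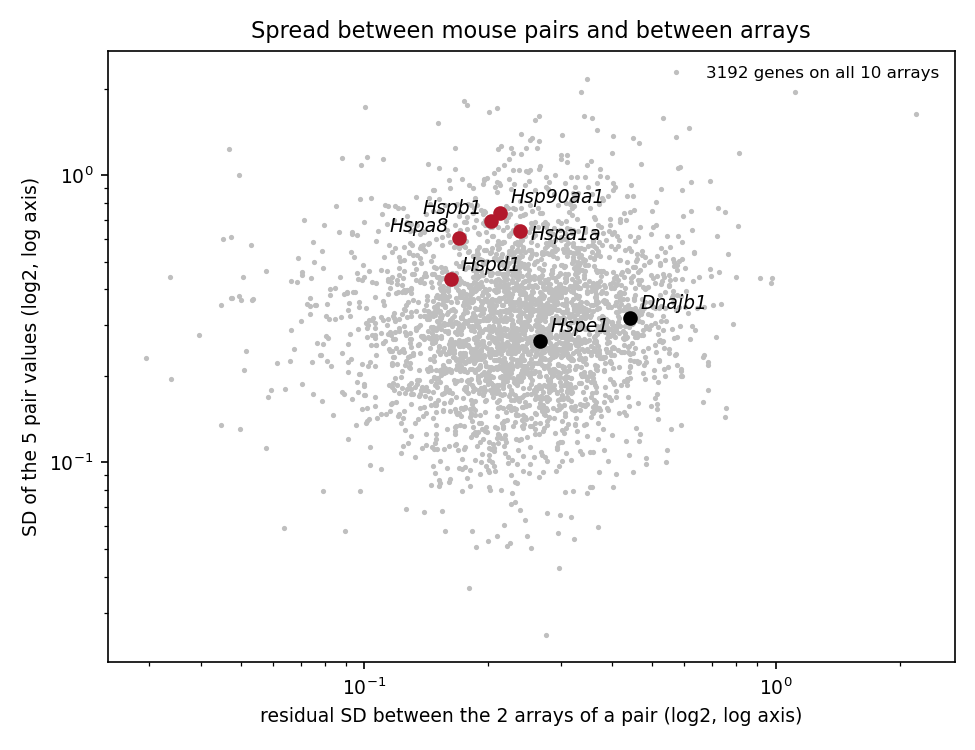
SD of the 5 pair values (vertical, log axis) against the residual SD between the arrays of a pair (horizontal, log axis) for 3192 genes on all 10 arrays (grey) and 7 chaperone genes (red where the pairs differed at adjusted p under 0.05, black otherwise). Hsp90aa1, Hspb1, Hspa8 and Hspa1a lie high, with SDs between pairs from 0.60 to 0.74 and residual SDs from 0.17 to 0.24.

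Sex did not separate the members past the test. The female pair 1 minus the male pairs 2, 3 and 4 gave -1.21 for Hspb1, -0.91 for Hspa1a and -0.85 for Hsp90aa1 on the log2 scale. Limma called 0 of 7 members tested (adjusted p = 0.150 for Hspb1, the smallest), against 0.21% of 3336 genes, with 1 female pair that is assumed to vary like the male ones. In pairs 1 and 5 the apoE-null mouse was female, a different mouse in each, and for this contrast, chosen after the values were seen, Hspb1 averaged -1.23 in these pairs and -0.03 in pairs 2, 3 and 4 (limma, adjusted p = 0.177). It also called 0 of 7 members, against 0.157% of 3192 genes.

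Other genes of the heat shock response had pair medians of both signs. None of 8 measured HSF1 targets and heat shock factor genes passed the genotype test, 3 had means above 0 and 5 below, and the list median was -0.13, with pair medians of -0.41, -0.27, 0.37, 0.07 and -0.32. In the F test over pairs 3 of 7 differed, against 30.9% of all genes. Hsph1, an HSP110 exchange factor for HSP70 and a further HSF1 target, had -0.72, 0.35, 0.90, 0.52 and -0.61 in pairs 1 to 5 (mean 0.09 ± 0.72, SD, n = 5 pairs). Its direction matched that of Hspa1a in every pair but pair 2. Serpinh1, the collagen chaperone HSP47, had -0.19 ± 0.13 (SD, n = 5 pairs) and was below 0 in every pair. The small heat shock protein Cryab had -0.22 ± 0.34 and the metallothionein Mt2 -0.62 ± 1.76 (SD, n = 5 pairs). Of these, Mt2 had the widest spread, from -2.58 in pair 1 to 0.69 in pair 3.

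Further chaperones and co-chaperones had no gene past the genotype test. None of 3 measured HSP70 and HSP110 relatives passed (median 0.18); Hspa14 had 0.18 ± 0.23 (SD, n = 4 pairs) and the mitochondrial HSP70 Hspa9 0.24 ± 0.57 (SD, n = 5 pairs). Of 11 J-domain co-chaperones none passed (median -0.0032), with Dnajb4 at 0.55 ± 0.80 (SD, n = 3 pairs), of which pair 3 read 1.37, Dnajc1 at -0.26 ± 0.38 and Dnajb6 at 0.10 ± 0.16 (SD, n = 5 pairs). Small heat shock proteins had 3 measured genes and none that passed (median 0.05), with Hspb2 at 0.14 ± 0.19 (SD, n = 3 pairs) and Hspb8 at 0.05 ± 0.18 (SD, n = 5 pairs). Among 13 co-chaperones of HSP90 and HSP70, 11 means were below 0, against 2506 of all 4299 genes, and none passed (median -0.08). Unc45a, a myosin-folding partner of HSP90, had -0.41 ± 0.47 (SD, n = 5 pairs, adjusted p = 0.515 in limma), the cyclophilin Ppid -0.18 ± 0.25 (SD, n = 5 pairs) and the HSP70-HSP90 adaptor Stip1 -0.37 ± 0.64 (SD, n = 3 pairs).

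The ER, cytosolic chaperonin and mitochondrial lists likewise had no gene past the threshold. Of 19 ER chaperone and unfolded protein response genes, 14 had means below 0 (median -0.14), against 2506 of all 4299 genes. The disulfide isomerase Pdia4 had a positive mean of 0.50 ± 0.41 (SD, n = 5 pairs, adjusted p = 0.341 in limma), beside Calr at -0.22 ± 0.18 (SD, n = 5 pairs) and Manf at -0.22 ± 0.17 (SD, n = 4 pairs). The 12 measured genes of the chaperonin TRiC and of prefoldin, which fold actin and tubulin, had a median of -0.06. Of their means 5 were above 0 and 7 below. Cct6a had -0.19 ± 0.13, Cct8 -0.18 ± 0.21 (SD, n = 5 pairs) and Vbp1 -0.31 ± 0.53 (SD, n = 4 pairs), whereas Cct2 had 0.12 ± 0.11 (SD, n = 5 pairs). In the F test over pairs 0 of 9 TRiC and prefoldin genes differed, against 30.9% of all genes. Of 11 mitochondrial chaperones and proteases, 8 were above 0 (median 0.14), against 1793 of all 4299 genes. Phb had 0.41 ± 0.56, Dnajc15 0.44 ± 1.00 (SD, n = 5 pairs) and Yme1l1 -0.23 ± 0.44 (SD, n = 4 pairs). The pair medians of this list, 0.68, -0.15, -0.16, 0.34 and -0.25, were highest in pairs 1 and 4, as were the values of Hspd1. Of its genes 7 of 9 differed among pairs, against the same 30.9%.

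Markers of the tissue's cell types and genes of handling stress were set beside the members by pair. As the samples are bulk tissue, fewer cells of a type and less RNA per cell cannot be told apart. Smooth muscle markers, of which 9 of 11 on the array had pair values, had pair medians of -0.51, -0.36, 0.31, 0.01 and -0.40, below 0 in the same pairs as the member median. None of the 9 passed (median -0.20), with Actg2 at -0.32 ± 0.43, Tpm1 at -0.27 ± 0.35 and Smtn at -0.23 ± 0.28 (SD, n = 5 pairs). Means were below 0 for 7 of the 9 and above 0 for 2, Tpm2 at 0.25 and Tagln at 0.07. In pairs 1 and 2 Tpm2 read 0.70 and 0.35, and Tagln -0.11 and 0.36, so not every marker followed the list median. The part of smooth muscle content in the chaperone ratios was not tested. Immediate early genes, which answer handling and stress within minutes, had pair medians of -0.41, 0.10, 0.14, -0.03 and -0.23, with 0 of 16 called (median -0.14). Ier5, which acts on HSF1, had -0.49 ± 0.31, Gadd45b 0.38 ± 0.15 and Fos -0.28 ± 0.25 (SD, n = 5 pairs), and the limma adjusted p of the first was 0.255. Their part in the chaperone ratios was not tested either.

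Fat markers were high in the pairs in which Hspd1 was high. The pair medians of 15 adipocyte markers were 2.01, -0.24, -0.52, 1.00 and -0.36 and those of 7 brown fat markers 2.23, 0.19, -0.49, 1.48 and 0.05, highest in pairs 1 and 4. Means were above 0 for 14 of 15 adipocyte (median 0.45) and 7 of 7 brown fat markers (median 0.59). None of either list passed, and 1793 of all 4299 genes had means above 0. Lpl, the 1 adipocyte marker with a mean below 0, had -0.42 ± 0.58, Scd1 0.72 ± 1.19, Adipoq 0.65 ± 1.19, Fabp3 0.79 ± 0.96, Cox8b 0.78 ± 1.24 and Cox7a1 0.78 ± 1.34 (SD, n = 5 pairs). What fat in the samples contributes to the Hspd1 ratio was not tested. Macrophage markers had pair medians of -1.18, -0.46, -0.75, -0.50 and 0.30, unlike the members in pairs 3, 4 and 5. All 18 measured had means below 0 (median -0.53), against 2506 of all 4299 genes. Of the 18, 10 had an unadjusted p under 0.05 in limma, against 9.47% of all genes. Of these, Cd5l fell (log2 -2.02 ± 0.62, SD, n = 5 pairs, limma adjusted p = 0.0126), and the other 17 did not pass after adjustment, among them the lysozyme genes Lyz2 at -0.81 ± 0.54 and Lyz1 at -0.83 ± 0.60 (SD, n = 5 pairs). The 10 endothelial markers had pair medians between -0.10 and 0.14 and a median of -0.03, with Cldn5 at 0.28 ± 0.22, Kdr at 0.24 ± 0.49 and Egfl7 at -0.14 ± 0.20 (SD, n = 5 pairs). Of the 9 striated muscle markers 6 had means above 0 and 3 below (median 0.13), and they had pair medians between -0.73 in pair 1 and 1.42 in pair 2, with Actc1 at -0.45 ± 0.33 (SD, n = 4 pairs), Tnnc1 at 0.34 ± 0.64 (SD, n = 3 pairs) and Tnnt2 at -0.31 ± 0.73 (SD, n = 5 pairs), and none of either list passed.

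**Figure D4:**
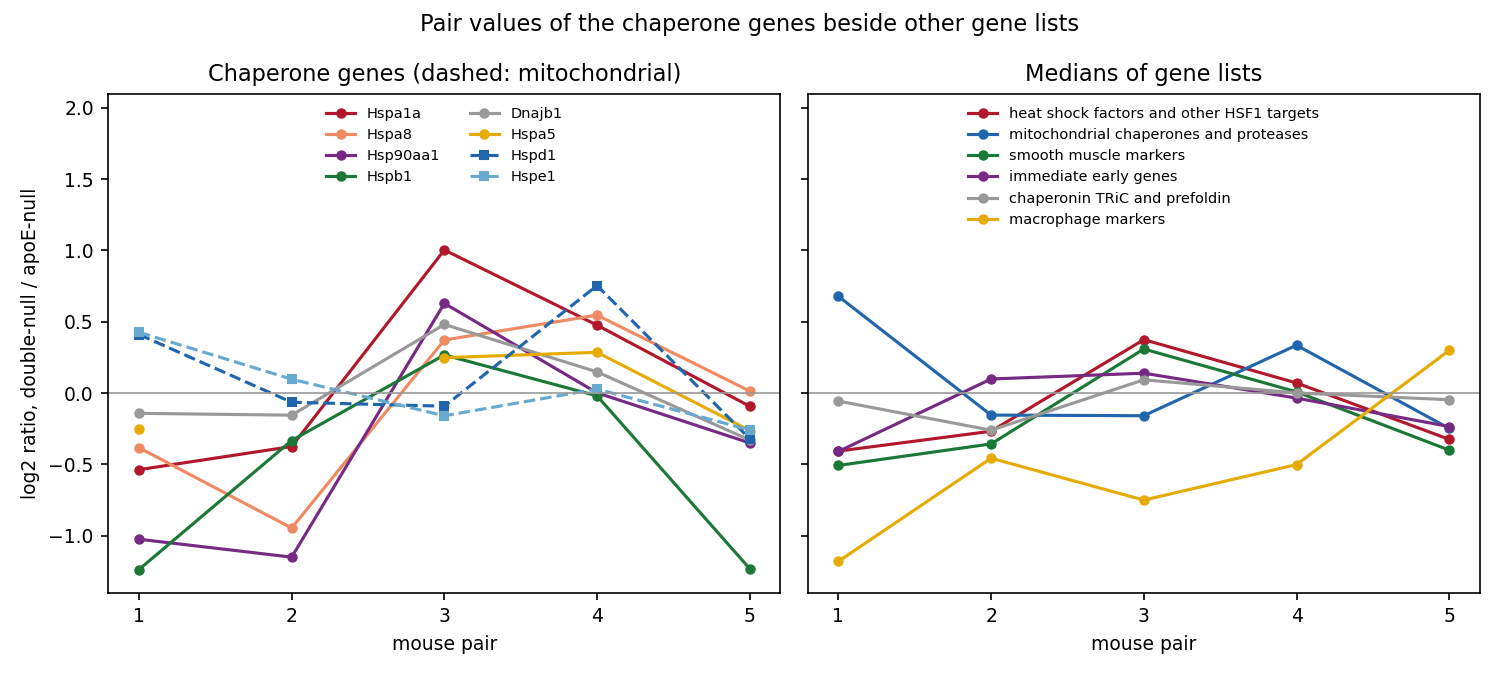
Pair values of log2 double-null over apoE-null (vertical axis) by mouse pair (horizontal axis) for 8 chaperone genes (left) and as medians of 6 gene lists (right). Lines join the values of 1 gene or list, and the pairs have no order. The cytosolic genes and Hspa5 lie below 0 in pair 1 and above 0 in pair 3. The smooth muscle median is also -0.51 and 0.31 in these pairs. The dashed mitochondrial genes lie the other way, although the single arrays of pair 3 disagree in sign for Hspd1, Hspb1 and Hspa5. Those of pair 1 disagree for Hspa8 and Hspa5.

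Outside the family, the genes whose 5 pair values lay nearest to the median member profile, by root mean square difference over 3185 genes, were Pdpk1 (0.08), Pcgf5 (0.08), Ppp1r7 (0.10), Ddx24 (0.10) and Mbtps1 (0.11). Pdpk1 read -0.41, -0.24, 0.25, 0.15 and -0.33 in pairs 1 to 5, beside the member medians of -0.32, -0.33, 0.32, 0.22 and -0.29.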

How the data were processed

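Aortic arch RNA was amplified with T7 polymerase, labelled with Micromax ASAP, and scanned on a GenePix 4000B, and the data were analysed in GeneSpring, per the labels. The titles say that the authors deposited apoE-null over double-null, as log2 ratios; the base follows from the lowest value, -6.64, which is log2 of 0.01. The normalization and the reason for blank cells (49.1% to 67.0% of an array, leaving 4581 to 7057 values of 13872 probes) were not given in the sources used here. The tests rest on 5 mouse pairs, and no scanner output was used.

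Signs were turned, and the arrays of a pair, which name the same mice, were averaged (both needed). In pair 1 the labels exchange the genotypes of mice 7 and 8 between the arrays, and the genotype labels, not the mouse numbers, were used. Probes with at least 3 pair values were averaged per gene, which gave 4299 genes. Partner arrays correlated across probes at r = 0.56, 0.31, 0.04, 0.19 and 0.46 in pairs 1 to 5. Probe symbols of the platform annotation were renewed through Entrez identifiers of RefSeq GRCm38.p6: 12143 probes had 1 symbol, 49 several and 1680 none. Genes were tested with limma 3.58.1 in R 4.3.3 (lmFit and eBayes; p-values two-sided, adjusted over all genes by Benjamini-Hochberg, threshold 0.05), and the fits were tested on simulated data. A dye effect was tested on the pairs' differences between orientations.

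The members, the lists and the tests were chosen with earlier results of these data known. Named genes are the 10 members, Myd88, every gene of a list past the threshold or otherwise up to 3 with the smallest p, and the 5 nearest profiles; Hspa9, Hsph1, Cryab and Mt2 stand in 1 list or more. The F test over pairs and the contrast by the sex of the apoE-null mouse were added after the values were seen. Other settings tried were omission of each pair, fits to arrays, single orientations, pair values from 1 array, centring, scaling, filters, robust eBayes, male pairs alone, single probes, a threshold of 0.10 and, added later, leaving out genes with a dye effect.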

Additional observations from a re-analysis of the deposited data

Results flagged for a closer look

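Mt2, a metallothionein in the list of HSF1 targets, differed between the pairs with a female apoE-null mouse and the others. Its log2 ratio was -2.58 and -2.51 in pairs 1 and 5 against 0.65, 0.69 and 0.65 in pairs 2, 3 and 4. The difference was -3.20 (limma, adjusted p = 0.00201 over 3192 genes with 5 pair values). The female pair 1 minus the male pairs 2, 3 and 4 gave -3.24. The contrast by the sex of the apoE-null mouse was chosen after the values were seen, and 0.157% of genes passed it. Pair 1 is female in both genotypes and pair 5 in the apoE-null mouse alone, so the sex of that mouse and anything else these 2 pairs share cannot be told apart. Dixon's test for a value apart flagged no member and no list median among 24 groups of pair values checked. For 5 values it needs a gap above 0.71 of their range, so it can miss a value that stands apart. The striated muscle median of 1.42 in pair 2 was not flagged, beside -0.73 to 0.0031 in the other pairs.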

How the results depend on the processing

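No alternative brought a chaperone gene past the threshold: 0 members were called under each setting run, a threshold of 0.10 included, and the smallest adjusted p of a member was 0.220 (Hspb1, arrays as independent). Of 141 single-gene values under the alternatives, 123 kept their direction and 18 changed sign, all of genes with means between -0.08 and 0.14; the means of Hspb1 and Hsp90aa1 kept theirs. Leaving out each pair gave -0.70 to -0.33 for Hspb1, -0.63 to -0.19 for Hsp90aa1, -0.13 to 0.25 for Hspa1a, -0.089 to 0.093 for Hspa5, -0.24 to 0.14 for Hspa8, -0.016 to 0.25 for Hspd1, -0.073 to 0.098 for Hspe1 and -0.12 to 0.083 for Dnajb1. With the pair as a replicate block on single arrays Hspa5 was -0.060, and with no block -0.045; with pair values from 1 array it was -0.085. With double-null RNA in channel 2 only, Hspa5 was -0.30 and Dnajb1 -0.074, and with it in channel 1 only, Hspa8 was 0.22 and Hspe1 -0.036. Scaling the arrays gave 0.018 for Hspa8 and the male pairs alone -0.011 for Hspe1. The cause of these changes was not tested. Over all genes, 35 calls became 0 to 17 without 1 pair, 99 in channel 2 alone, 7 with pair values from 1 array and 3 without genes with a dye effect. In the F test over pairs, 986 calls became 489 without pair 1 and 480 without the orientation term.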

Other observations

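Among the genes of the lists, Hsph1 and Hspb1 had the smallest p after Mt2 and the lipogenic enzyme Fasn in the contrast by the sex of the apoE-null mouse. Hsph1 averaged -0.66 in pairs 1 and 5 and 0.59 in pairs 2, 3 and 4 (limma, adjusted p = 0.157), and Chordc1, a co-chaperone of HSP90, averaged -0.33 and 0.49 (adjusted p = 0.356). Fasn went the other way, at 2.79 and -0.76 (adjusted p = 0.155). Gadd45g, at -0.36 and 0.60, Nr4a1, at -0.70 and 0.42, and Zfp36, at -0.68 and 0.16, are immediate early genes. They had smaller p than Chordc1 and the same direction. Fos, Jun and Ier2 of the same list went the other way, with differences of 0.15, 0.22 and 0.05. Thrsp, at 1.94 and -0.49, also had a smaller p than Chordc1, in the direction of Fasn. The part of handling stress was not tested. Apart from Mt2, none of the genes named here passed, and they were named after their values were seen.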
